A study of Mus musculus with 10 samples.

Results

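A set of 9 protein-coding genes that are very long and, for the most part, known from common fragile sites were followed through a map of 5-carboxylcytosine (5caC) in mouse embryonic stem cells: Wwox, Fhit, Immp2l, Macrod2, Lrp1b, Csmd1, Magi1, Magi2 and Auts2. They were chosen by name, as 9 of the 21631 protein-coding genes with a RefSeq span on these chromosomes. Every listed CG position inside the mm10 span of each gene was taken, which gave 2384 of the 922427 listed positions. The site counts and the ratio between media were already known when the genes were chosen, so these values are given as a description and not tested. Genomic DNA came from embryonic stem cells grown without feeders on gelatin in medium with serum and LIF. The table held 4 groups, each made from 2 technical replicates: wt cells in serum, wt cells in serum-2i, cells labelled Tdg in serum, and cells labelled Tdg in serum-2i. Serum-2i is the same serum medium with 3 µM CHIR99021, a GSK3 inhibitor, and 1 µM PD0325901, a MEK inhibitor. The labels name the gene Tdg without stating the alteration, the cell line or the number of clones. DNA of serum-grown cells lacking all Tet genes served the authors as the negative control, and it has no entry in the table and is not analysed here.

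5caC is the last oxidation product that TET dioxygenases make from 5-methylcytosine, and thymine DNA glycosylase, the product of Tdg, cuts it out so that base excision repair can restore an unmodified cytosine. Listed 5caC therefore marks CGs where methylated DNA met TET activity and the base had not been excised. Common fragile sites are regions that break under replication stress, and many lie over very long genes that replicate late. Wwox and Fhit are the classic examples, both deleted in many tumours.

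The values were coverage of a CG, read here as the mean of the 2 replicates of a group. The lowest listed value was 3 for serum wt, 4 for serum-2i wt and 6 for each of the Tdg groups. These values are read here as group minimums, since the rule for listing a position is not stated. A position without an entry therefore has an unknown level and not a level of 0. The groups listed 8685, 110753, 374488 and 689303 positions in the order serum wt, serum-2i wt, serum Tdg and serum-2i Tdg, with summed coverages of 43172, 890158.5, 7486660 and 12348368. There is no value per replicate, so no difference given here can be set against the spread between replicates. The material was DNA, so no marker of cell type was measured.

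For 5 of the 9 genes, RefSeq (GRCm38.p6) gave a promoter sequence, and 3 of these are shown because they are rich in CGs and none of those was listed. The 250 bases before the start of Immp2l (chr12:41023840-41024089, plus strand), of Macrod2 (chr2:140395180-140395429, plus strand) and before a start of Magi2 (chr5:19226796-19227045, plus strand) follow, with every CG in capitals.
Immp2l: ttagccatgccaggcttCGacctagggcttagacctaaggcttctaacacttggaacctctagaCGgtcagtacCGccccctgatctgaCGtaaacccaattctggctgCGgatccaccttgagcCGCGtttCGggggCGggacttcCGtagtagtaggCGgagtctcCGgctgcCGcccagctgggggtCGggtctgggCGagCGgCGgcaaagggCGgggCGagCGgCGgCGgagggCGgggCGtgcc
Macrod2: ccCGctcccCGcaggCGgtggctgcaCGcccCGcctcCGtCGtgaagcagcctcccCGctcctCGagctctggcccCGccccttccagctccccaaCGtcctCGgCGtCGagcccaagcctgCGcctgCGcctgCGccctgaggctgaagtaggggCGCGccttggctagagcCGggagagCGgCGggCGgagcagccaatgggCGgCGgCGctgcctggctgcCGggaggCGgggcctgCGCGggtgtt
Magi2: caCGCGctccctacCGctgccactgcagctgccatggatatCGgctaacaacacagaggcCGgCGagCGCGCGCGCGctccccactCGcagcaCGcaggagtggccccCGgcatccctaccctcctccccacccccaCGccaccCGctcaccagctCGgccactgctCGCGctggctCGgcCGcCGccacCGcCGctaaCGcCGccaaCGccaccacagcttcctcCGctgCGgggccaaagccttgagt
These stretches hold 24, 30 and 29 CGs and have a G and C content of 66%, 76.4% and 72%. None of these CGs was listed in any of the 4 groups. With 2000 bases added on either side of the windows of 300 bases, serum Tdg cells had 1 listed site at Immp2l, 2 at Macrod2 and 7 at Magi2. Serum-2i Tdg cells had 0, 1 and 2. Over all 6044 RefSeq promoter windows of 300 bases (250 before and 50 after the start) with at least 25 CGs, 10.9% had a listed site in serum and 1.16% in serum-2i, both in Tdg cells.

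Within the promoter windows of these 5 genes, only 2 CGs were listed, both at starts inside the gene's span. The Magi2 start shown above also lies inside its span, which begins at 19219387, and so do all windows of Magi1. No window therefore covered the 5′ end of the span of Magi1 or Magi2. They are shown with the listed CG in capitals, Magi2 at chr5:19907529-19907558 on the plus strand and Magi1 at chr6:93913676-93913705 on the minus strand.
Magi2 inner start: gacaggcagacttgCGtagagcccaggttc
Magi1 inner start: ctggcctagatatcCGgcagcctctgagaa
The CG at the inner start of Magi2 had a coverage of 26 in serum and 69.5 in serum-2i, in Tdg cells. That of Magi1 was listed in serum-2i Tdg cells alone, with 8.5. The windows of Fhit held none.

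Magi1, Wwox and Auts2 were dense in listed 5caC, Lrp1b and Csmd1 were nearly bare, and the other genes lay between, in each group where sites were numerous. In serum-2i Tdg cells, the group with most sites, densities ran from 1.41 sites per 100 kb in Lrp1b to 72.8 in Magi1, with a median of 10.8. These densities are per length of span and not per CG. Depth limits the low values most.

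The tumour-suppressor genes of the fragile sites differed widely. Wwox encodes a WW-domain oxidoreductase and covers 913 kb of chromosome 8 (114439635 to 115352712); it had 3 listed sites in serum wt, 99 in serum-2i wt, 92 in serum Tdg and 534 in serum-2i Tdg cells, where the density was 58.5 per 100 kb. Fhit encodes a diadenosine triphosphate hydrolase and covers 1612 kb of chromosome 14 (9550092 to 11162061); its sites numbered 1, 18, 8 and 114 in the same order, with 7.07 per 100 kb in serum-2i Tdg cells. Fhit is the longer gene and held the fewer sites in every group.

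Immp2l and Macrod2, both genes of enzymes, were sparser than Wwox. Immp2l, which encodes a subunit of the inner membrane peptidase of mitochondria, covers 932 kb of chromosome 12 (41024061 to 41955588) and had 0, 17, 16 and 144 sites, or 15.5 per 100 kb in serum-2i Tdg cells. Macrod2, which encodes an enzyme that removes ADP-ribose from proteins, covers 1998 kb of chromosome 2 (140395303 to 142392966) and had 1, 13, 22 and 118 sites, or 5.91 per 100 kb.

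Both genes for large membrane proteins stood lowest. Lrp1b, an endocytic receptor of the LDL receptor family, covers 2058 kb of chromosome 2 (40595290 to 42653598) and had 0, 3, 1 and 29 sites. Csmd1, a transmembrane protein with CUB and Sushi domains, covers 1643 kb of chromosome 8 (15892538 to 17535385) and had 0, 3, 8 and 44 sites. In serum-2i Tdg cells these were 1.41 and 2.68 sites per 100 kb.

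The scaffold genes Magi1 and Magi2, paralogs that encode guanylate kinase-like proteins of cell junctions and synapses, did not match. Magi1, at 608 kb the shortest (chromosome 6, 93675453 to 94283929), had 2, 73, 57 and 443 sites. Magi2, at 1485 kb (chromosome 5, 19219387 to 20704792), had 0, 15, 41 and 161 sites, or 10.8 per 100 kb in serum-2i Tdg cells against 72.8 in Magi1. Auts2, which encodes a regulator of neural development that takes part in a Polycomb complex, covers 1106 kb of chromosome 5 (131437333 to 132543220) and had 3, 64, 152 and 532 sites. Auts2 had the highest density of the 9 genes in serum Tdg cells, 13.7 per 100 kb, ahead of Wwox with 10.1 and Magi1 with 9.37; in both serum-2i groups Magi1 led.

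**Figure D1:**
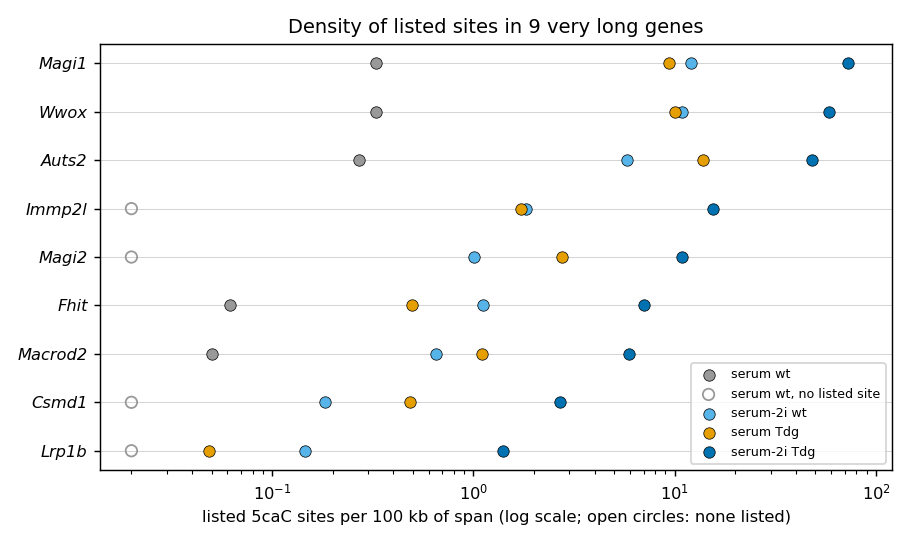
Listed 5caC sites per 100 kb of span (log scale) for each of the 9 genes in the 4 groups, as 1 value per group from 2 technical replicates; open circles mark genes with no listed site in serum wt cells. Magi1, Wwox and Auts2 lie above the other genes in every group, and the serum-2i Tdg value is the highest of the 4 in each gene, from 1.41 to 72.8.

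Where a site was listed, its coverage varied little between these genes in serum-2i Tdg cells: the mean per site ran from 15.2 in Lrp1b to 18.7 in Csmd1, although the density differed by far more. In serum Tdg cells the mean ran from 10.7 in Fhit to 21.1 in Magi2. The highest single values were in Auts2, 163.5 at position 131468907 in serum-2i and 90 at position 131596722 in serum, both in Tdg cells.

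Among all 216 autosomal protein-coding genes of 500 kb or more, the 9 genes spread over the whole range. By sites per 100 kb in serum-2i Tdg cells, Magi1 ranked 2, Wwox 10 and Auts2 12, whereas Csmd1 ranked 180 and Lrp1b 200. The median of the 9 genes was 10.8 per 100 kb and that of the other 207 was 7.93. In serum Tdg cells the medians were 1.72 and 1.48. Autosomal protein-coding genes under 500 kb had medians of 31.3 and 12.2 in these groups.

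All 9 genes took a larger share of the listed coverage in serum-2i than in serum Tdg cells. The log2 ratio of the shares (serum-2i over serum, each gene's coverage divided by the total of its group) was at least 1, that is 2-fold, with an exact 95% interval above 0 in 7 of 9; the call rests on counting error alone. That rule called 29.6% of the 18050 genes listed in both groups higher and 25.7% lower. Among 198 other protein-coding genes of 500 kb or more it called 77.3% higher and 1.01% lower. The count for the 9 genes lies near that share, though these genes were not matched to them in length.

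Lrp1b had the highest ratio, 4.54 (interval 3.94 to 5.20), from a summed coverage of 11.5 at a single site in serum and 441 at 29 sites in serum-2i. Fhit followed with 3.78 (3.56 to 4.01), from 85.5 and 1939.5. These genes had the least coverage in serum Tdg cells, together with Csmd1, whose ratio was 2.47 (2.25 to 2.70) from 90 and 822. Immp2l had 2.45 (2.32 to 2.58), from 276.5 and 2490. Magi1 had 2.29 (2.22 to 2.36), from 997 and 8040. The intervals of Csmd1, Immp2l and Magi1 overlapped in part: that of Csmd1 met both others, and those of Immp2l and Magi1 met as well. Macrod2 stood at 2.05 (1.93 to 2.18), from 293 and 2002.5, and Wwox at 1.87 (1.82 to 1.93), from 1474.5 and 8910. Auts2, with 3107.5 and 9686, stood at 0.92 (0.88 to 0.96), and Magi2, with 864 and 2652.5, at 0.90 (0.82 to 0.98). Both were positive but under 2-fold and did not differ beyond their intervals.

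The median of the 9 genes was 2.29, beside 1.96 for the other long genes (quartiles 1.07 and 2.89) and 0.10 for all 18050 genes. Summed over the 9 genes, 2119 sites stood against 397, 5.34 times as many where all listed sites gave 1.84 times, and the log2 ratio of coverage was 1.64 (1.61 to 1.66). Without Auts2, which gave 3107.5 of the 7199.5 in serum, it was 2.02.

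**Figure D2:**
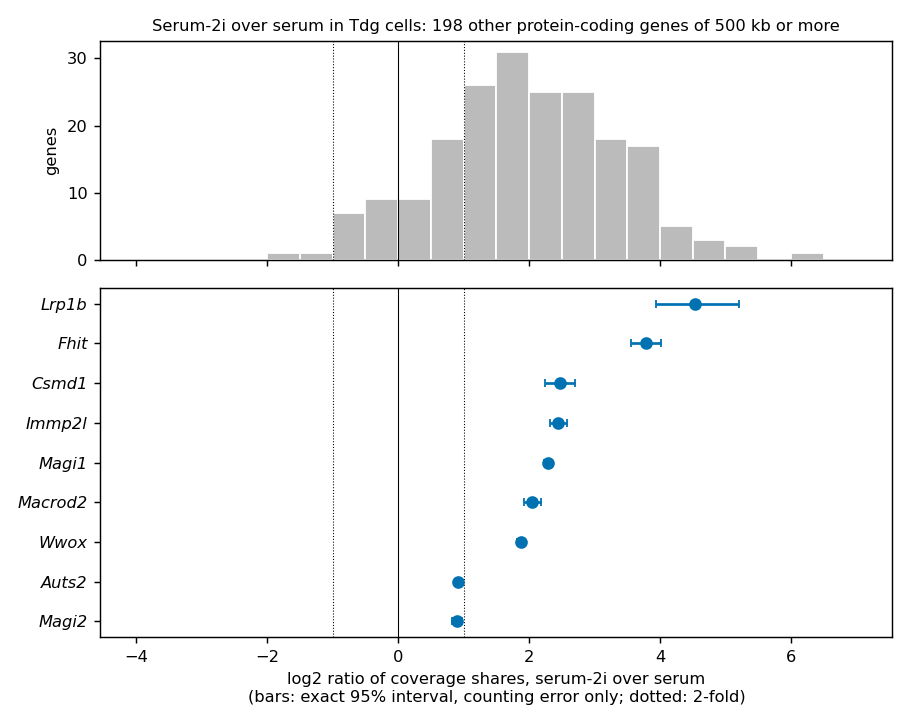
Log2 ratio of the share of listed coverage, serum-2i over serum in Tdg cells: above, a histogram over 198 other protein-coding genes of 500 kb or more; below, the 9 genes with exact 95% intervals that cover counting error only. All 9 lie above 0, from 0.90 in Magi2 to 4.54 in Lrp1b, and within the range of the other long genes; dotted lines mark 2-fold.

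In Tdg cells, serum sites crowded toward the ends of the spans, and serum-2i sites did so less. The outer 10% at each end, 20% of the length in all, held 54.2% of the sites in serum Tdg cells (215 of 397, exact 95% binomial interval 49.1 to 59.1) but 28.1% in serum-2i Tdg cells (596 of 2119, 26.2 to 30.1). In serum-2i wt cells the share was 27.5% (84 of 305, 22.6 to 32.9). The share was higher in serum than in serum-2i Tdg cells in 8 of 9 genes; the exception, Lrp1b, had its only serum site inside. It was also higher in serum in 149 of 196 other long autosomal genes listed in both groups. Neighbouring sites are not independent, so the intervals of these shares are too narrow. Among the other 207 long autosomal genes the shares were 42.9% in serum and 27.0% in serum-2i Tdg cells.

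Magi2 had the highest share at its ends in serum: 35 of its 41 sites in serum Tdg cells (85.4%) lay in the outer 10% at either end, 28 of them at the higher-coordinate end. In serum-2i Tdg cells the ends held 74 of 161 (46.0%). In Immp2l, 11 of 16 serum sites lay in the first 10% of the span, where its start is, and none in the last, whereas in serum-2i each of 10 equal bins held between 6 and 24. Wwox was filled throughout, with sites in each of the 10 bins in either medium and 26.1% of serum and 12% of serum-2i sites in the outer bins.

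**Figure D3:**
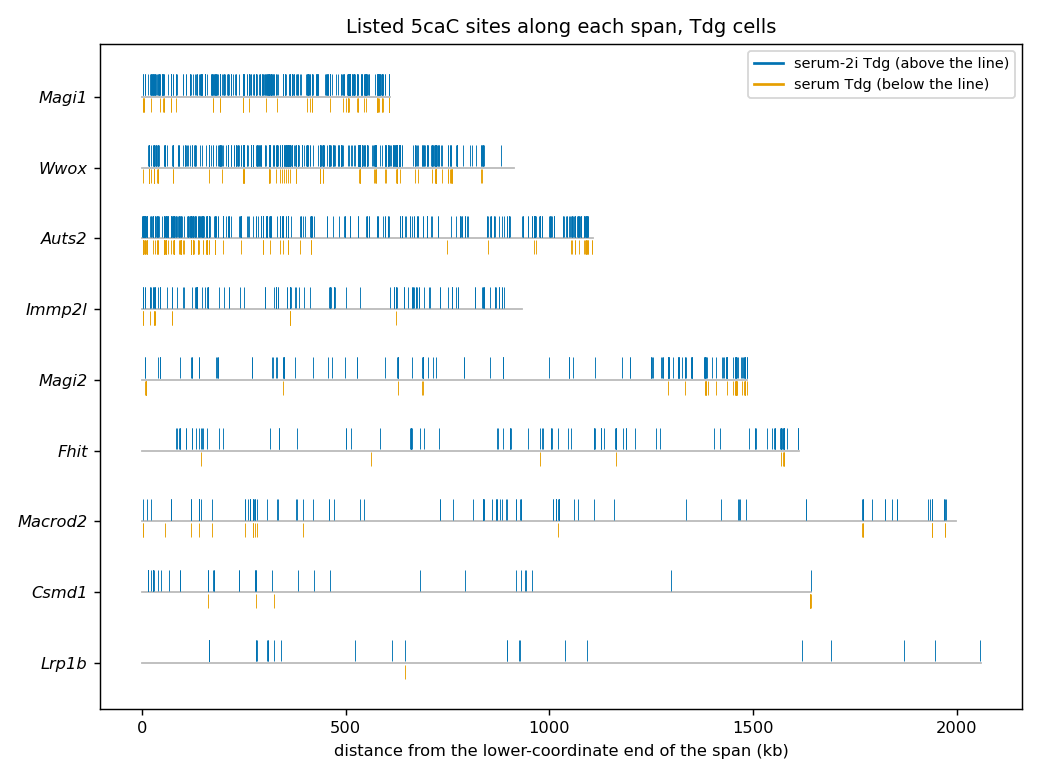
Each vertical stroke is a listed 5caC site in Tdg cells, placed by its distance (kb) from the lower-coordinate end of the span, drawn to scale for the 9 genes; serum-2i sites stand above each line and serum sites below it. Magi1, Wwox and Auts2 are filled along most of the span in serum-2i, while the serum sites of Magi2, Immp2l and Auts2 crowd toward an end.

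The ratio between media followed the same division. In the outer bins, the summed coverage of the 9 genes had a log2 ratio of 0.66 (0.63 to 0.70), and in the inner 80% one of 2.42 (2.38 to 2.45). The inner ratio exceeded the outer in all 8 genes that had coverage in all these parts. Lrp1b, the exception above, had no serum site in its outer bins and so no outer ratio. These ratios come from the same sites as the shares above, so they are not separate support for them. In Magi2 the outer ratio was -0.00055 (-0.092 to 0.091) and the inner 3.33 (3.10 to 3.56). The inner ratios of Csmd1 (3.37, 2.87 to 3.93), Magi1 (3.14, 3.04 to 3.24), Immp2l (3.59, 3.38 to 3.81) and Lrp1b (3.89, 3.29 to 4.56) had intervals that overlapped that of Magi2. In Auts2 the outer ratio was 0.31 (0.26 to 0.37) and the inner 1.63 (1.57 to 1.70), the lowest interior of the 9 genes. In Fhit both were high, 3.51 and 4.13. Among other long autosomal genes with all these parts, 122 of 150 (81.3%) had the higher ratio inside, and the median difference was 1.44 against 1.48 for the 8 genes.

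**Figure D4:**
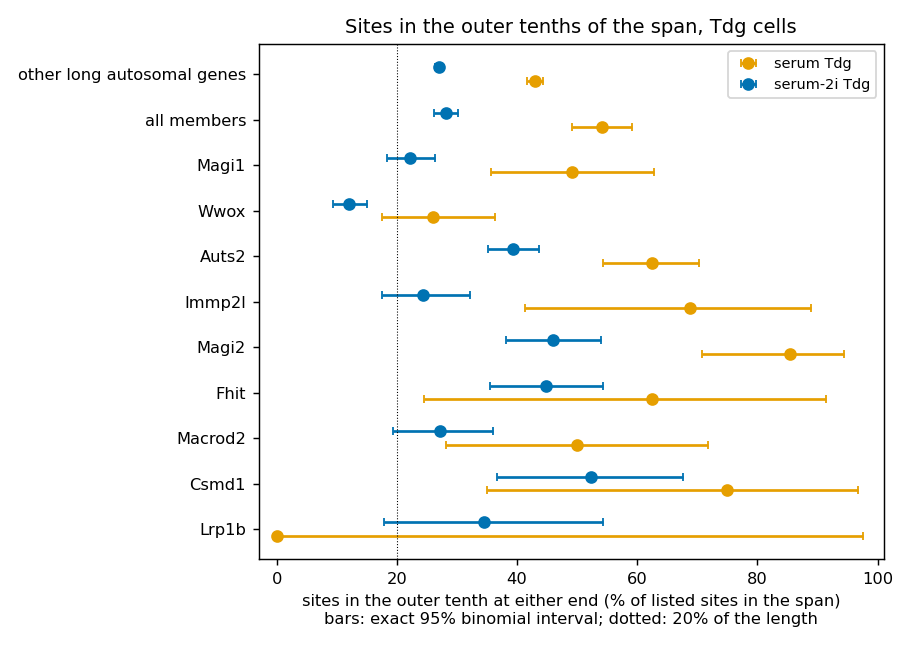
Share of a gene's listed sites that lie in the outer 10% at either end of its span, in serum Tdg and serum-2i Tdg cells, with exact 95% binomial intervals; the dotted line marks 20%, the share of the length. The share is higher in serum in 8 of 9 genes and in 149 of 196 other long autosomal genes, over all 9 together (54.2% against 28.1%) and in the other 207 long autosomal genes (42.9% against 27.0%).

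Close to the ends the direction turned in some genes. Within 5 kb of an end, 0.73% of the total span, lay 37 of 397 sites in serum Tdg cells (9.32%, 6.65 to 12.6) and 57 of 2119 in serum-2i Tdg cells (2.69%, 2.04 to 3.47). In the other long autosomal genes, where such windows made up 1.22% of the span, the shares were 12.2% (667 of 5488) and 2.81% (600 of 21324). Magi1 had 12 sites there in serum and 7 in serum-2i, and its log2 ratio of coverage was -2.03 (-2.29 to -1.77). Csmd1 had 5 and 1 (-3.59, -4.41 to -2.85) and Macrod2 2 and 1 (-2.48, -3.38 to -1.65). In Csmd1 these 5, all at the higher-coordinate end, were most of the gene's 8 serum sites. Auts2 went the other way, with 12 sites against 35 and a ratio of 1.44 (1.25 to 1.64). Immp2l (-0.24) and Magi2 (0.18) had intervals that included 0. Near its ends Wwox was listed in serum alone (1 site), and Fhit (4 sites) and Lrp1b (1 site) in serum-2i alone. Of 102 other long autosomal genes listed near the ends in both media, 47 were lower and 17 higher in serum-2i, and the median was -0.75. A further 29 were listed there in serum alone and 39 in serum-2i alone.

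Sites often stood in tight groups. In serum-2i Tdg cells, 86.9% of the sites of Magi1, 86.3% of Auts2 and 83.7% of Wwox had another listed site of that gene within 1 kb. In Lrp1b it was 51.7% of the 29. Such a share rises with the density of sites, which was 72.8 per 100 kb in Magi1 and 1.41 in Lrp1b. It was not compared with evenly scattered sites, so it does not rank the genes by how grouped their sites are. The longest run with gaps of at most 1 kb was in Auts2: 52 sites over 6912 bases at its lower-coordinate end (131437410 to 131444321), where serum Tdg cells had 13 and serum-2i wt cells 7. Serum Tdg cells had their longest run in Auts2 as well, 17 sites over 2330 bases (131489866 to 131492195), where serum-2i Tdg cells had 4. At the higher-coordinate end of Magi1, 1.24 kb inside the span, serum Tdg cells had 8 sites in 993 bases and serum-2i Tdg cells 4. Magi1 lies on the minus strand by its RefSeq promoters, so this is its 5′ side.

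Long stretches held no listed site. In serum-2i Tdg cells the longest was 527 kb in Lrp1b (41688497 to 42215288), followed by 343 kb in Csmd1 and 187 kb in Macrod2, against 16.6 kb in Magi1. In serum Tdg cells the longest were 1413 kb in Lrp1b (68.7% of its span), 1317 kb in Csmd1 (80.1%), 746 kb in Macrod2 (37.4%) and 601 kb in Magi2 (40.4%). Such stretches lengthen as sites become fewer, so their lengths were not compared between groups.

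Most positions in these genes were listed in serum-2i Tdg cells alone, 1709 of 2384 (71.7%). Of the 397 sites in serum Tdg cells, 272 (68.5%) were also listed in serum-2i Tdg cells, which is 12.8% of the 2119 there; over the whole table the shares were 52.8% and 28.7%. Wwox shared 73 of its 92 serum sites (79.3%), Auts2 98 of 152 (64.5%) and Csmd1 2 of 8. In the serum-2i groups, 166 of 305 wt sites (54.4%) were listed in Tdg cells, beside 49.1% over all positions. A single position was listed in all 4 groups, in Auts2 at 131514377, with coverages of 5 and 9 for wt and 45 and 120 for Tdg cells, serum before serum-2i.

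At the 272 shared positions the coverage itself was higher in serum-2i in 171 (62.9%), equal in 2 and lower in the rest, with medians of 21.25 and 15.5. Over all 197737 shared positions of the table, 50.9% were higher in serum-2i, with medians of 18.5 and 17.5. Per share of its group, a shared position of the 9 genes had a median log2 ratio of -0.25 (quartiles -1.11 and 0.56). Over all shared positions of the table it was -0.67 (quartiles -1.44 and 0.09). A position had to pass the minimum in both groups to count as shared. Positions of these genes listed in only 1 of the media had lower coverage, with a median of 12 for the 1847 in serum-2i and 11 for the 125 in serum.

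**Figure D5:**
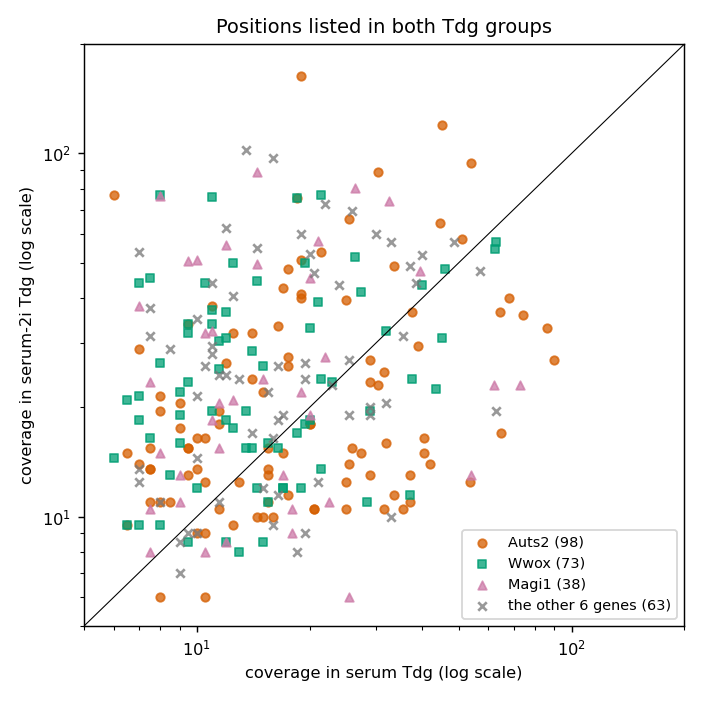
Coverage in serum Tdg cells (x) and serum-2i Tdg cells (y), both on log scales, at the 272 positions of the 9 genes listed in both groups; the line marks equal coverage, and 171 points lie above it. Auts2, with 98 points, has many on either side of the line, while 51 of the 73 points of Wwox lie above it.

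In wt cells the media could be compared in 5 of the 9 genes, on far fewer sites. Serum wt cells listed 10 sites in the 9 genes, with coverages from 3 to 9, and none in Immp2l, Lrp1b, Csmd1 and Magi2. Only genes with such a site had a ratio, which favours low ratios here and among the other genes. For the 5 remaining genes the log2 ratio of serum-2i over serum was 1.34 (0.83 to 1.91) in Wwox, 1.38 (0.24 to 2.84) in Fhit, 0.83 (0.28 to 1.44) in Auts2, 0.67 (-0.39 to 2.00) in Macrod2 and 0.65 (0.16 to 1.19) in Magi1. Wwox and Fhit were called higher, 2 of 5, where 4.52% of all 3454 genes and 19.7% of 66 other long genes were called higher and 61.8% and 30.3% lower. Neither call held throughout: Wwox was 0.91 (0.19 to 1.76) with a common minimum coverage of 6 and 1.37 (-0.22 to 3.67) by site numbers, and Fhit was 0.50 (-2.17 to 5.88) by site numbers. With that minimum Magi1 turned to -0.81 (-1.30 to -0.27). Summed over the 9 genes the ratio was 1.16 (0.88 to 1.46), and 0.79 (0.38 to 1.22), under 2-fold, with the minimum of 6. The media comparisons in wt and Tdg cells share no sample, and their difference was not tested.

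The shares were next compared between Tdg and wt cells. In serum-2i, none of the 9 genes passed the 2-fold rule in either direction, where it called 12.2% of all 15053 genes higher and 21.5% lower, and 23.0% and 1.09% of 183 other long genes. With a common minimum coverage of 6 for these groups, Lrp1b (1.94, 1.18 to 2.81) and Magi2 (1.12, 0.89 to 1.37) were called higher, 2 of 9. The ratios (Tdg over wt) ran from -0.34 (-0.41 to -0.26) in Wwox to 0.94 (0.73 to 1.15) in Magi2, with a median of 0.37, beside 0.46 for the other long genes. Wwox and Fhit (-0.20, -0.37 to -0.04) were below 0 and the others above it, Magi1 with an interval that included 0 (0.07, -0.01 to 0.16). In serum the comparison rested on the 10 wt sites, and only genes with a listed wt site had a ratio, which favours low ratios. Fhit (-2.61, from 1 wt site with a coverage of 3) and Magi1 (-1.56) were called lower, 2 of 5. The rule called 57.6% of all 3871 genes lower and 3.46% higher, and of 67 other long genes 50.7% lower and 1.49% higher. Immp2l, Lrp1b, Csmd1 and Magi2 had no listed wt site and so no ratio. The lower limit of the interval was 1.43 in Magi2, with 41 sites in serum Tdg cells, and below 0 in the others. Wwox stood at -0.87, Macrod2 at -1.05 (-2.10 to 0.27) and Auts2 at 0.41 (-0.13 to 1.01).

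A list of 16 further long genes of fragile regions was set beside them. Of the 15 with enough coverage, 13 were higher in serum-2i than in serum Tdg cells, 2 were between and none was lower. Among the 198 other long genes, which include genes of this list, 77.3% were higher and 1.01% lower. The median of the list was 2.13, beside 2.29 for the 9 genes. Among the highest were Dmd (5.17, dystrophin) and Cntnap2 (3.11, a neuronal adhesion protein). Among the lowest were Nbea (-0.93, from 28 sites in serum and 30 in serum-2i) and Dlg2 (1.27, a synaptic scaffold). Dmd, on X, had a single serum site. Of 10 relatives of the 9 genes, 8 had enough coverage, and 3 of these were higher, 1 lower and 4 between, with a median of 0.17. Over all 18050 genes, 29.6% were higher and 25.7% lower. The higher ones were Csmd3 (2.59), Magi3 (1.95) and Csmd2 (1.32). Macrod1, a shorter paralog of Macrod2 with 141 kb, was lower (-1.65, 236 sites against 283), and the LDL receptor relative Lrp1 (-0.85) and the Auts2 relative Fbrsl1 (-0.70) were next.

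Protein-coding genes nested in the spans held few of the sites. Lrrn3, a leucine-rich repeat protein inside Immp2l, had 6 sites in serum-2i Tdg cells and none listed in the other groups. Flrt3, a neuronal adhesion protein inside Macrod2, had 4 sites in serum Tdg and 10 in serum-2i Tdg cells, a log2 ratio of 0.94 (0.63 to 1.26). The long genes whose site densities over the 4 groups lay nearest to the medians of the 9 genes were Rbfox1, Slc9a9, Nckap5, Adgrv1 and Celf2, with Euclidean distances of 0.66 to 0.76 on the log2 scale over 4 values. Rbfox1, a splicing regulator with a 1528 kb span, had 18 sites in serum-2i wt, 25 in serum Tdg and 203 in serum-2i Tdg cells.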

How the data were processed

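The values are coverage, as deposited by the authors, at CG positions in 4 groups. Submitters' processing notes name mm10 as the build; for the aligner and caller nothing is stated (not given in the sources used here). Azide tagging of 5caC at CGs, enrichment and Ion Proton sequencing preceded them, per the labels' protocols. Values come in steps of 0.5, hence the reading as a mean of 2 technical replicates, whose sum is the count behind an interval.

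Positions were counted from 0 in the table: read that way, all 15194 listed positions inside RefSeq promoter windows fall on a CG. They are printed counting from 1. Spans came from RefSeq (GRCm38.p6, the assembly of mm10), without flanks; a site in overlapping spans counted for each. Genes were kept where the coverage averaged at least 20 over the 4 groups.

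Ratios are log2 ratios of a gene's share of its group's summed coverage, with conditional Clopper-Pearson 95% intervals (scipy 1.17.1). Such intervals hold counting error alone, since amplified reads are not independent and 1 read may cover several CGs. No p-value was computed, because each group has 1 value. A gene was called higher or lower at 2-fold with an interval excluding 0. The code for the ratio and its call was run on simulated counts drawn independently. Those have no spread between replicates and no shared reads, so that run cannot show how the intervals hold for these data.

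The genes and lists were chosen with earlier results of these data known. The 9 genes are always named; of each comparison list the 3 highest and 3 lowest ratios are named except where not reported here, nested protein-coding genes from 5 sites in a Tdg group upward, and the 5 nearest long genes. Alternatives were the coverage minimum, site numbers, scaling, nested genes, ends, a cap on coverage, equal site numbers and leaving out each gene. The split into outer and inner parts of the span was chosen after seeing the data.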

Additional observations from a re-analysis of the deposited data

Results flagged for a closer look

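Summed over the 9 genes, the log2 ratio of coverage shares between Tdg and wt cells was above 0 in serum-2i, at 0.14 (interval 0.09 to 0.18), and below 0 in serum, at -0.34 (-0.62 to -0.05). The medians of other long genes listed in both groups were 0.46 in serum-2i (183 genes) and -1.03 in serum (67 genes). A median over genes is a different measure from a sum. The like medians of the 9 genes were 0.37 in serum-2i and, over the 5 with a ratio, -1.05 in serum. The serum sum also counts the Tdg coverage of Immp2l, Lrp1b, Csmd1 and Magi2, which had no listed wt site. Only genes with a listed site in serum wt cells enter the serum medians, which favours ratios below 0. The sign of these medians therefore lends no support to that of the sum. The listing minimums of the groups differ. The difference was not tested, and the serum value rests on 10 listed sites in wt cells. Both sums lie between the 2-fold limits.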

How the results depend on the processing

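No paired analysis was possible because the table holds 1 value per group; for the same reason no replicate could be left out. In Tdg cells, the ratio of media summed over the 9 genes stayed higher, between 1.53 and 1.72, under a minimum coverage of 10, site numbers, either scaling, a cap at the 99th percentile, sites of nested genes or near the ends left out, and a serum-2i minimum raised to 13; 7 genes were called in each, or 8 by site numbers. Leaving out a gene gave 1.5 (without Magi1) to 2.02 (without Auts2). From sites within 5 kb of the ends alone, the sum was 0.014 and 1 gene of 6 was higher; Immp2l (-0.24), Macrod2 (-2.48), Csmd1 (-3.59) and Magi1 (-2.03) turned negative there. With a common minimum of 6, the sum in wt cells fell under 2-fold (0.79) and Magi1 turned to -0.81. By site numbers, Tdg over wt in serum-2i turned to 0.025 in Fhit and -0.036 in Magi1. In serum Tdg cells, 0.252% of sites lay within 1 kb of the ends, 19.6% within 20 kb and 54.2% in the outer 10%. In serum-2i Tdg cells these shares were 0.236%, 6.84% and 28.1%. The windows made up 0.146%, 2.91% and 20% of the span. Within 1 kb lay only 1 of 397 sites in serum and 5 of 2119 in serum-2i. There the shares hardly differed between media and rested on few sites. With minimums of 6 and 10, serum wt cells kept 3 and 0 sites, and with 10, serum-2i wt cells kept 55. Of 112 values of single genes under these settings, 98 kept direction and call, 4 passed the 2-fold rule newly, 3 lost it and 7 changed sign. Of the 98, 9 were fixed by construction, since a minimum of 6 is already that of the Tdg groups. Leaving out nested genes changed Immp2l and Macrod2 alone, so the other values there were fixed too. Either scaling moved every gene by the same amount. Few serum sites limit Lrp1b, Fhit and Csmd1.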

Other observations

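The neighbourhood of the genes was measured over 500 kb on either side. In serum-2i Tdg cells, Wwox had 58.5 sites per 100 kb against 12.8 in its flanks, Auts2 48.1 against 20.6 and Magi1 72.8 against 47.8. No such excess was seen in the others: Lrp1b had 1.41 against 1.8, Csmd1 2.68 against 8.4, Macrod2 5.91 against 12.2, Fhit 7.07 against 19.7, Magi2 10.8 against 20.4 and Immp2l 15.5 against 15.6. By the ratio of the denser to the sparser side, the flanks were most unequal at Fhit (5 below and 34.4 above), Magi2 (3.2 and 37.6) and Immp2l (29 and 2.2). In these genes the 10% of the span next to the denser flank was also the fullest, with 35 of 114 sites in Fhit, 61 of 161 in Magi2 and 24 of 144 in Immp2l.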
